A study of Rattus norvegicus with 16 samples.

Results

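The S100 genes S100a8, S100a9, S100a4, S100a6, S100a10 and S100a11, which encode small calcium-binding proteins, were followed in the whole blood of control rats. They were chosen by symbol, and each of the 6 was listed once in every library, among 18031 genes listed in all libraries and 26405 listed in at least 1. The blood came from 16 male Sprague-Dawley rats, all saline controls, aged 85 to 90 days per the labels. Saline at 1 ml/kg was injected 4 times, 2 h apart, and the animals were sacrificed 3 h after the last injection. Blood was drawn by needle from the heart, alpha and beta globin mRNA was depleted, polyadenylated RNA was selected, and paired ends were sequenced. With a single group there was no treated arm to compare. The data could address how far these transcripts differed between control animals and which of them moved together. They could also address whether the transcripts differed between runs, read from codes in the file names that the labels do not explain.

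S100 proteins are small proteins that bind calcium through EF-hand loops and mostly work as dimers that dock onto a partner protein when calcium rises. S100a8 and S100a9 pair with each other to form calprotectin, which fills much of the cytosol of neutrophils, is also made by monocytes, sequesters zinc and manganese from microbes, and signals through Tlr4 and Ager once released. The other 4 are found in many cell types. S100a4 binds the non-muscle myosin heavy chain Myh9, S100a6 binds Cacybp, S100a10 holds annexin A2 (Anxa2) in a tetramer and has lost the ability to bind calcium itself, and S100a11 binds annexin A1 (Anxa1).

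The 6 genes lie on chromosome 2 in the RefSeq annotation of the GRCr8 assembly. S100a8 and S100a9 are immediate neighbors, S100a10 and S100a11 are next to each other among protein-coding genes, and S100a4 and S100a6 are separated by S100a5 alone. The region of 250 bases before the start of transcription was available from RefSeq for 4 of the 6 genes, and is shown because these 4 include S100a9 and S100a11, which moved together across animals, and S100a4 and S100a6, which moved together as well. No entry was given for S100a8 and S100a10. Each sequence reads 5′ to 3′ along the gene, and capitals mark the TATA box letters TATAAA or the GC box letters GGGCGG. S100a9 is at chr2:178490623-178490872 on the minus strand, S100a4 at chr2:178388279-178388528, S100a6 at chr2:178398287-178398536 and S100a11 at chr2:181874882-181875131, the last 3 on the plus strand, all in GRCr8.
S100a9: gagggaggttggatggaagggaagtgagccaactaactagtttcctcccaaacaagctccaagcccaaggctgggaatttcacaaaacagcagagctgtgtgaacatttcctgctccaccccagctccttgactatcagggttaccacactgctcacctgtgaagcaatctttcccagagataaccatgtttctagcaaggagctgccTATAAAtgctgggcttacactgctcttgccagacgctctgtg
S100a4: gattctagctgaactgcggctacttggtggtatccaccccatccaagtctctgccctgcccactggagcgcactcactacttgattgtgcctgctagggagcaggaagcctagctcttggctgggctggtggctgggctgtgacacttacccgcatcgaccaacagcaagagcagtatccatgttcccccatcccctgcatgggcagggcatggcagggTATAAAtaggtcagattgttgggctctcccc
S100a6: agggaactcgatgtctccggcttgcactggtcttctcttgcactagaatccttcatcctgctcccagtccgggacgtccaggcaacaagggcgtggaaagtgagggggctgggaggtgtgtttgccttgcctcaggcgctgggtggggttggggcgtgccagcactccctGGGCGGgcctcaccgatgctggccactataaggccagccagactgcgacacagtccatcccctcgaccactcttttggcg
S100a11: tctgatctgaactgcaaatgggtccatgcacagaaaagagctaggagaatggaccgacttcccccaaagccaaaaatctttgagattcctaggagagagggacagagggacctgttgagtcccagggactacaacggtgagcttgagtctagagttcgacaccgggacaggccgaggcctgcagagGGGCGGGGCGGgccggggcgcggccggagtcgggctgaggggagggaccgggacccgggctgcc
Both strands were searched. TATAAA was found before S100a9, 42 bases before the start, and before S100a4, 31 bases before it, and in 12.9% of 33469 RefSeq promoters of the same length. GGGCGG was found before S100a6 and, in 2 matches that share 1 base, before S100a11, and in 30.5% of the promoters. The PU.1 core letters GAGGAA and the C/EBP letters TTNCNNAA, where N is any base, were found before S100a9 and before none of the other 3, and in 23.3% and 37.2% of all promoters. The AP-1 letters TGANTCA were in none of the 4 and in 6.34% of all. S100a9 and S100a11, whose levels moved together, thus shared none of these 5 motifs within the 250 bases.

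Libraries held 21466776 to 31189549 estimated counts, and every pair of libraries differed by more than counting noise. Levels below are normalized counts, which are rounded estimated counts divided by a DESeq2 size factor for the library. They are not corrected for transcript length, so they compare a gene between animals and not with another gene. All 8 lists of blood cell markers were expressed in every library. Transcripts of other tissues stood apart in 6 libraries. The 5 liver markers, among them albumin (Alb), had a mean log2 level of 15.07 in control 2, 10.78 in control 8, 8.57 in control 7 and 7.08 in control 5, against 3.96 or less in the others. The 2 fat markers with usable counts stood at 9.04 and 5.66 in controls 12 and 10, with connective tissue markers at 7.78 and 8.17, against at most 4.02 and 5.22 elsewhere. Levels and the main relations are given below also without these 6 libraries, over the other 10, a setting chosen after the data were seen. The name of the library of control 5 also carries the word pool, which the labels do not explain.

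S100a8 and S100a9, the calprotectin pair, varied more between control animals than nearly all well expressed genes. S100a8 ranged from 8347 normalized counts in control 6 through a median of 56296 to 382314 in control 8, a 45.8-fold range, with a mean of 100637 ± 101420 (SD, n = 16). S100a9 ranged from 17699 in control 6 through a median of 120549 to 601942 in control 8, a 34.0-fold range, with a mean of 180931 ± 163664 (SD, n = 16). Both ranges rested on the end libraries: without control 8 they were 25.2-fold and 22.8-fold, and without control 6 they were 29.4-fold and 19.3-fold. Without the 6 libraries with transcripts of other tissues S100a8 averaged 85265 ± 71009 and S100a9 155081 ± 118797 (SD, n = 10), with ranges of 21.9-fold and 18.3-fold. Both were high in controls 7, 8, 9, 14 and 15 and low in controls 2, 3, 4 and 6. Their coefficients of variation, the SD as a percentage of the mean, were 100.8% for S100a8 and 90.5% for S100a9. Among 2449 genes with a mean of at least 1000 normalized counts the median coefficient of variation was 29.7%, and the pair stood at percentiles 97.6 and 96.6. So wide a spread was not particular to the pair. The neutrophil markers Mmp9, Il1r2 and Mmp8 stood at percentiles 98.2, 98.0 and 97.5, and Csf3r and Cxcr2 at 95.2 and 93.8. Annexin A1 stood at 97.3. Together S100a8 and S100a9 took 1.05% ± 0.866 of all counts (SD, n = 16), from 0.114% in control 6 (95% Wilson interval 0.112% to 0.115%) to 2.77% in control 8 (2.76% to 2.78%). Intervals cover counting error only.

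Of the libraries with liver transcripts, controls 7 and 8 had the highest S100a8 levels, at 210506 and 382314 normalized counts. Control 2, with by far the highest liver level, had 16142, and control 5 had 59739, close to the median. Controls 9, 14 and 15 had liver levels of 3.11 or less and 179844, 183087 and 162768 normalized counts of S100a8. The part of liver transcripts in the S100a8 levels was not tested.

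S100a11, a partner of annexin A1, had the next largest spread. It ranged from 1683 normalized counts in control 6 through a median of 4655 to 14202 in control 8, an 8.44-fold range, and averaged 5728 ± 3470 (SD, n = 16), with 5444 ± 3006 and a 6.61-fold range without the 6 libraries (n = 10). The same 5 libraries that were high for S100a8 held the 5 highest S100a11 values, with 11131 in control 15 and 7687 in control 9. Its coefficient of variation of 60.6% lay at percentile 91.3 of well expressed genes. RefSeq names 5 pseudogenes after S100a11 and 1 after S100a10 and none after the other 4, so reads of these 2 genes could have been divided with copies when the counts were estimated.

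The remaining 3 members varied far less. S100a4 ranged from 1262 normalized counts in control 4 through a median of 3188 to 5286 in control 8, and averaged 3352 ± 1145 (SD, n = 16). S100a6 ranged from 761 in control 4 through a median of 2243 to 3837 in control 5, and averaged 2273 ± 859 (SD, n = 16). S100a10 ranged from 1871 in control 4 through a median of 3042 to 3984 in control 3, and averaged 2908 ± 569 (SD, n = 16). Control 4 was the lowest of the 16 for all 3 genes, and no single animal was the highest for all 3. Their ranges were 4.19-fold, 5.04-fold and 2.13-fold, and without control 4 those of S100a4 and S100a6 were 2.34-fold and 3.27-fold. The 3 genes averaged 3011 ± 906, 2110 ± 843 and 2748 ± 632 (SD, n = 10) without the 6 libraries with transcripts of other tissues. The coefficients of variation of S100a4 (34.2%) and S100a6 (37.8%) stood at percentiles 60.1 and 65.9, and that of S100a10 (19.6%) at percentile 23.9, below the median gene.

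**Figure D1:**
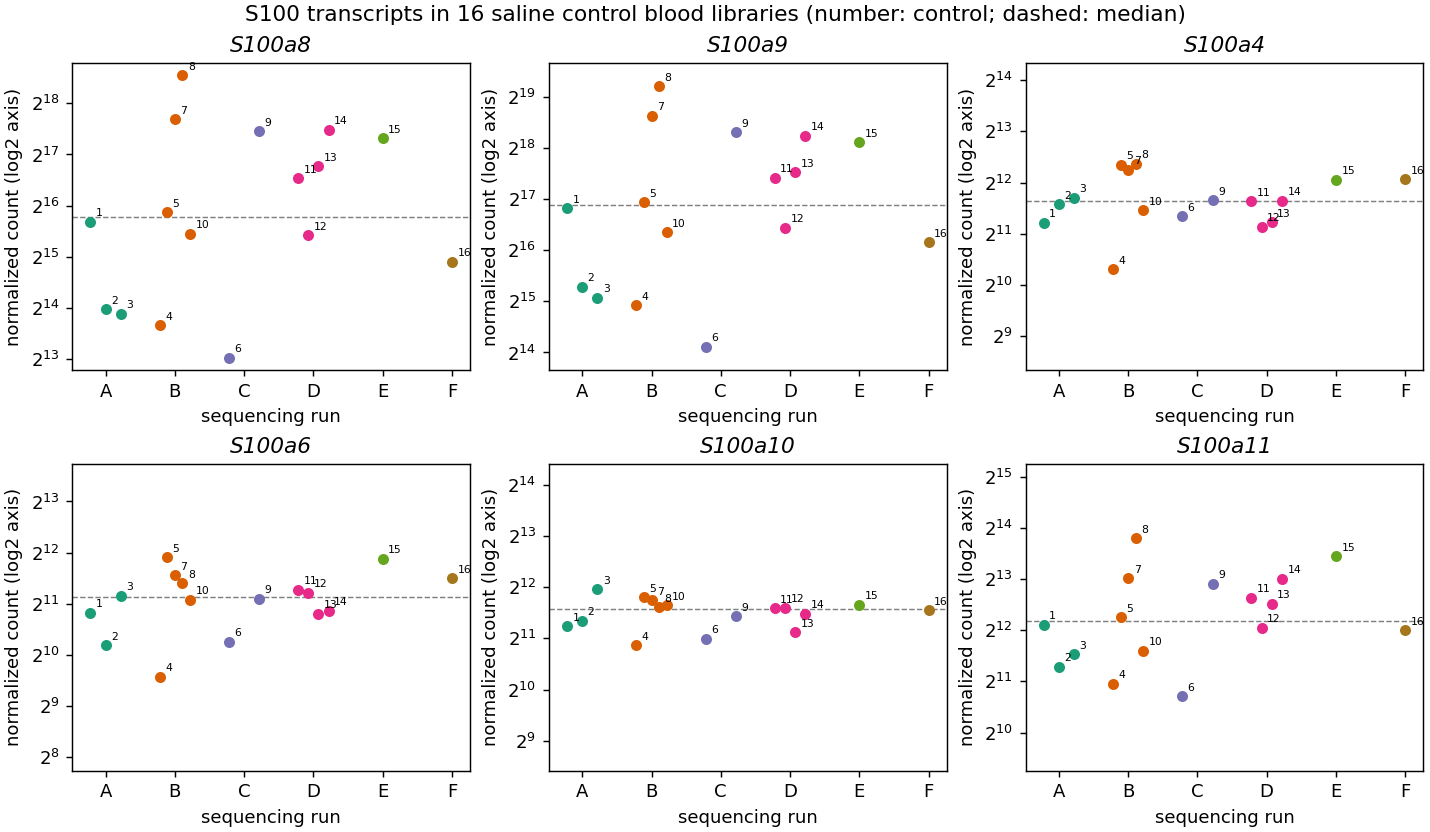
Normalized counts of the 6 S100 transcripts in the 16 saline control libraries, 1 panel per gene, by run (the code in the file name). The axis title calls it a sequencing run, which the labels do not say. The log2 axis spans the same number of doublings in every panel. Points are libraries with the number of the control, and the dashed line is the median of all 16. S100a8 and S100a9 cover 45.8-fold and 34.0-fold ranges with controls 7, 8, 9, 14 and 15 on top, while S100a10 stays within 2.13-fold.

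S100a8 and S100a9 moved almost in step. On the log2(normalized count + 1) scale used for all relations, Pearson's r between them over the 16 animals was 0.997 and Spearman's rho 0.994 (permutation test, adjusted p = 7e-05 for both, from the smallest p of 1e-05 that 100000 permutations can give). Tests of relations were two-sided with Benjamini-Hochberg adjustment over 63 relations, which are the 15 pairs of members and the 48 pairs of a member with a blood cell marker level. S100a11 followed the pair, with r = 0.969 to S100a8 (rho 0.968) and 0.970 to S100a9 (rho 0.971), both at adjusted permutation p = 7e-05. With each run's mean taken out, over the 14 libraries of runs with more than 1 library, r was 0.998 between S100a8 and S100a9, and 0.981 and 0.979 between S100a11 and each of the pair. Without controls 6 and 8, which lie farthest from the median of S100a8, the 3 values were 0.997, 0.951 and 0.953, and without the 6 libraries with transcripts of other tissues they were 0.997, 0.969 and 0.970 (n = 10).

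The other 3 genes formed weaker relations among themselves. S100a4 and S100a6 had r = 0.819 (rho 0.779, adjusted permutation p = 0.00069 and 0.00447), S100a6 and S100a10 had r = 0.822 (rho 0.815, adjusted p = 0.00092 and 0.00094), and S100a4 and S100a10 had r = 0.736 (rho 0.688, adjusted p = 0.00583 and 0.0224). With run means taken out they were 0.835, 0.873 and 0.763. The runs differed: within run B they were 0.965, 0.981 and 0.919 (n = 5), and within run D 0.014, 0.805 and 0.319 (n = 4). Without the 2 libraries farthest from the median of the first-named gene, which are controls 4 and 8 for S100a4 and 2 and 4 for S100a6, they were 0.706, 0.763 and 0.619. Over the 10 libraries outside the 6 with transcripts of other tissues they were 0.928, 0.812 and 0.790 (n = 10). The relation of S100a4 to S100a10 lost its call without control 4 (r = 0.596, adjusted permutation p = 0.0739), the animal lowest in both.

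Between these groups of genes the relations were looser and depended on single libraries. S100a6 and S100a11 had r = 0.678 (rho 0.606, adjusted permutation p = 0.014 and 0.0615), with 0.632 once run means were taken out and 0.533 without controls 2 and 4. S100a4 and S100a11 had r = 0.619 (rho 0.571, adjusted p = 0.0349 and 0.0812), with 0.707 and, without controls 4 and 8, 0.396. The call of both was lost without control 4 alone (r = 0.606 and 0.524, adjusted permutation p = 0.0689 and 0.132), and that of S100a4 with S100a11 also without control 7, 8 or 15 (adjusted p = 0.0659, 0.0894 and 0.0676). S100a6 with S100a8 (r = 0.598, rho 0.488, adjusted p = 0.0417 and 0.146) and with S100a9 (r = 0.608, rho 0.503, adjusted p = 0.0376 and 0.132) lost their calls on leaving out any of controls 2, 4, 6, 7, 8, 11 and 15 alone, and S100a8 also without control 1 or 10, with adjusted permutation p of at most 0.134 and 0.130 in these settings. These 2 relations were 0.590 and 0.589 with run means taken out, and 0.530 and 0.540 without controls 6 and 8. S100a4 did not pass with S100a8 (r = 0.536, rho 0.529, adjusted permutation p = 0.0755 and 0.108) or with S100a9 (r = 0.551, rho 0.521, adjusted p = 0.0687 and 0.114), and these rose to 0.648 and 0.641 with run means taken out and were 0.444 and 0.473 without controls 6 and 8. S100a10 with S100a8 (r = 0.356, rho 0.318, adjusted permutation p = 0.287 and 0.354), with S100a9 (r = 0.371, rho 0.309, adjusted p = 0.267 and 0.359) and with S100a11 (r = 0.439, rho 0.385, adjusted p = 0.172 and 0.261) did not pass. With run means taken out these 3 were 0.392, 0.388 and 0.453, and without the 2 farthest libraries, controls 6 and 8 for the calprotectin pair and 4 and 6 for S100a10, they were 0.173, 0.177 and -0.0047. In all, 10 of the 15 pairs passed, and 5 of these passed in all 27 alternatives: S100a8 with S100a9, each of these with S100a11, and S100a6 with S100a4 and with S100a10. Without control 4, 5 of the 15 passed. Without the 6 libraries with transcripts of other tissues 7 passed, and the relations of S100a6 to S100a8 and S100a9 (r = 0.563 and 0.576, adjusted permutation p = 0.205 and 0.193, n = 10) and of S100a4 to S100a11 (r = 0.580, adjusted permutation p = 0.183) were lost.

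**Figure D2:**
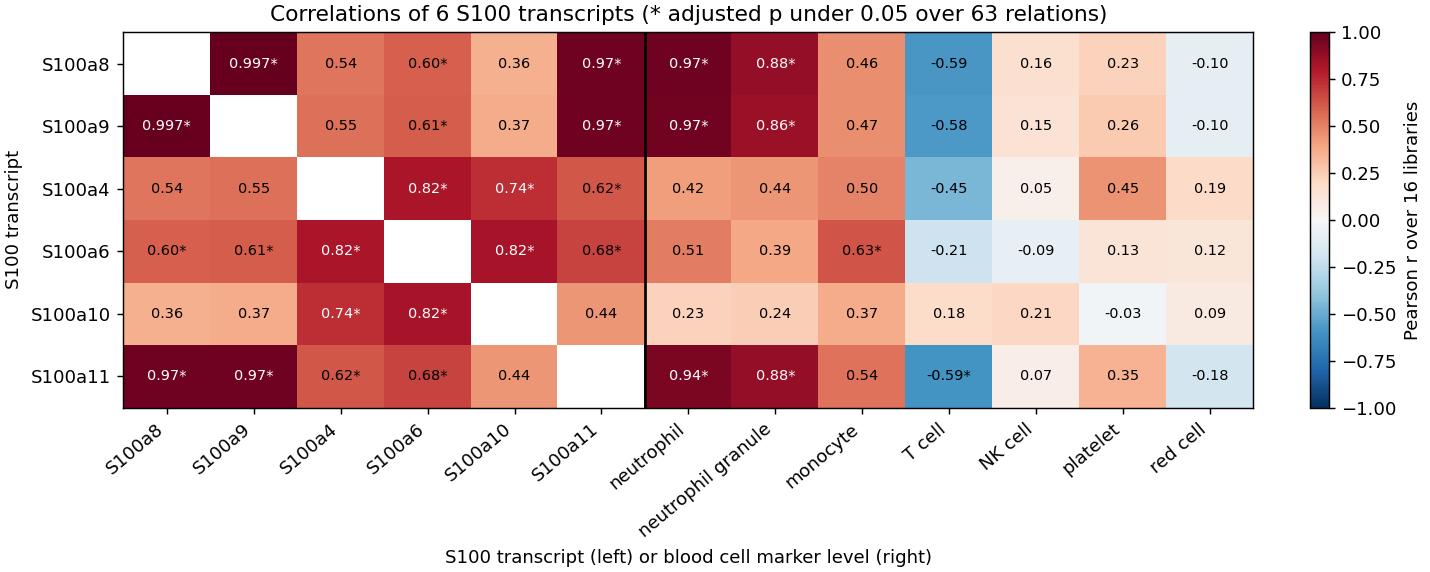
Pearson's r over 16 libraries of each S100 transcript (rows) with the other 5 (left of the line) and with the mean log2 level of 7 lists of blood cell markers (right of the line), by color from -1 (blue) to 1 (red), with a star at an adjusted permutation p under 0.05 over 63 relations. S100a8, S100a9 and S100a11 carry values of 0.86 and above with each other and with both neutrophil lists, and S100a4, S100a6 and S100a10 carry 0.74 to 0.82 among themselves.

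The ratio of S100a9 to S100a8 was the steadiest of all 15 ratios between members. The SD of its log2 value over the 16 libraries was 0.202, against 0.357 for S100a4 to S100a6, the next smallest, and 1.57 for S100a8 to S100a10, the largest. S100a9 had 2.00 ± 0.281 counts per count of S100a8 (SD, n = 16), from 1.57 in control 8 to 2.47 in control 2. Because transcript lengths were not used, only the change of this ratio between libraries can be read. It was not constant. The log2 ratio of S100a8 to S100a9 rose with the level of neutrophil markers (r = 0.868, rho 0.876, adjusted permutation p = 0.000123 and 0.000171, over 80 relations), a test added after the data were seen. It was 0.837 with run means taken out, 0.802 without controls 2 and 8, and 0.860 without the 6 libraries with transcripts of other tissues (n = 10).

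**Figure D3:**
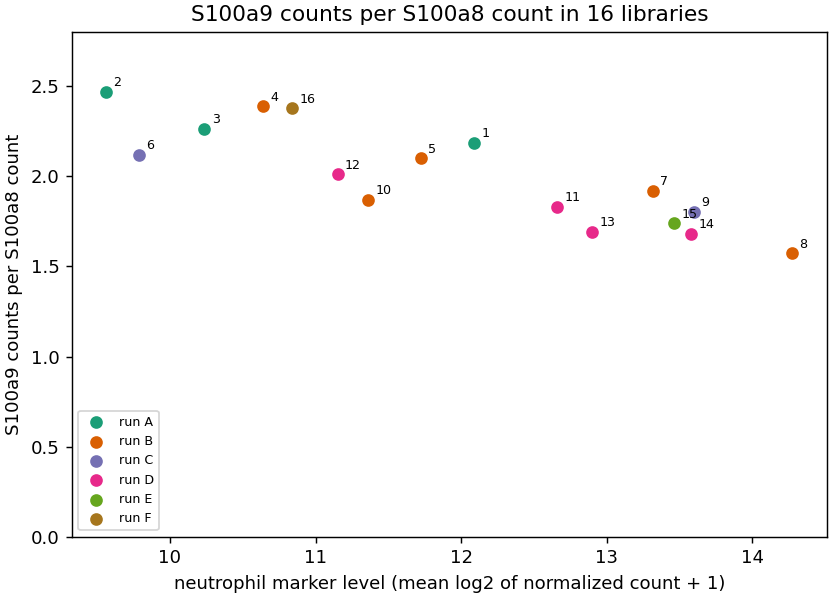
S100a9 counts per S100a8 count (vertical axis, from 0) in each of the 16 libraries against the neutrophil marker level (horizontal axis, mean log2 of normalized count + 1). Points are colored by run and numbered by control. The ratio lies between 1.57 (control 8) and 2.47 (control 2) and is lower in libraries with a higher neutrophil level.

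The neutrophil marker level, the mean of log2(normalized count + 1) of Csf3r, Cxcr2, Mmp8, Mmp9, Fpr1 and Il1r2, ran from 9.56 in control 2 to 14.27 in control 8. S100a8, S100a9 and S100a11 rose with it, with r = 0.974, 0.966 and 0.941 and rho = 0.956, 0.956 and 0.944 (adjusted permutation p = 7e-05 for all). In bulk blood, fewer cells of a type and less RNA per cell cannot be told apart, and each pair of values shares the scaling factor of its library. With run means taken out r was 0.970, 0.967 and 0.952, and without controls 2 and 8 it was 0.975, 0.969 and 0.933. It was 0.988, 0.983 and 0.938 without the 6 libraries with transcripts of other tissues (n = 10). The least-squares slopes differed: per log2 unit of neutrophil level, S100a8 rose by 1.07 ± 0.0661 log2 units (SE, n = 16), S100a9 by 0.954 ± 0.0682 and S100a11 by 0.553 ± 0.0529. The mean level of granule genes made in neutrophil precursors (Camp, Lcn2, Ngp and Elane, with Ltf and Mpo too low to use) gave r = 0.876, 0.860 and 0.881 and rho = 0.938, 0.938 and 0.956 with the same 3 members (adjusted permutation p = 7e-05), with 0.843, 0.828 and 0.880 once run means were taken out and 0.927, 0.911 and 0.939 without controls 8 and 14. These granule genes did not move alike with the 3 members. Singly and without a test, Camp had r = 0.931, 0.921 and 0.948 and Lcn2 0.795, 0.770 and 0.766. Ngp had only 0.246, 0.244 and 0.361. Elane, with a mean of 84.3 normalized counts, had no single value.

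S100a4, S100a6 and S100a10 did not pass with the neutrophil level. Their r was 0.421, 0.508 and 0.230 (rho 0.424, 0.421 and 0.203, adjusted permutation p = 0.189, 0.103 and 0.546), with 0.519, 0.486 and 0.268 once run means were taken out and 0.353, 0.402 and 0.172 without controls 2 and 8. Their slopes were 0.150 ± 0.0864, 0.210 ± 0.0953 and 0.0457 ± 0.0517 log2 units per unit (SE, n = 16), below those of the calprotectin pair. S100a6 passed with the monocyte level of Csf1r, Cd14, Cd68, Cx3cr1 and Lyz2 by Pearson's r (0.625, adjusted permutation p = 0.0349; 0.656 with run means taken out) but not by rank (rho 0.403, adjusted p = 0.238). Without controls 4 and 12 r was 0.492, and the call was lost without control 2, 4, 15 or 16 alone (r = 0.573, 0.412, 0.568 and 0.607). Without the 6 libraries with transcripts of other tissues r was 0.878 (adjusted permutation p = 0.0108, n = 10). S100a4 and S100a11 also passed there (r = 0.799 and 0.720, adjusted permutation p = 0.0494 for both), and S100a8, S100a9 and S100a10 did not. Over all 16 libraries S100a4, S100a8, S100a9 and S100a11 did not pass with the monocyte level (r = 0.498, 0.465, 0.467 and 0.545, adjusted permutation p = 0.113, 0.149, 0.149 and 0.0736). The genes of the monocyte level did not move alike with S100a6. Singly and without a test, r with S100a6 was 0.826 for Lyz2, 0.678 for Cd14 and 0.395 for Cd68. It was 0.046 for Csf1r and -0.255 for Cx3cr1. S100a4 passed with the platelet marker level by rank (rho 0.662, adjusted permutation p = 0.0327) but not by Pearson's r (0.447, adjusted p = 0.168). This r was 0.428 with run means taken out and 0.572 without controls 10 and 12. S100a10 passed with none of the 8 marker levels over all 16 libraries.

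**Figure D4:**
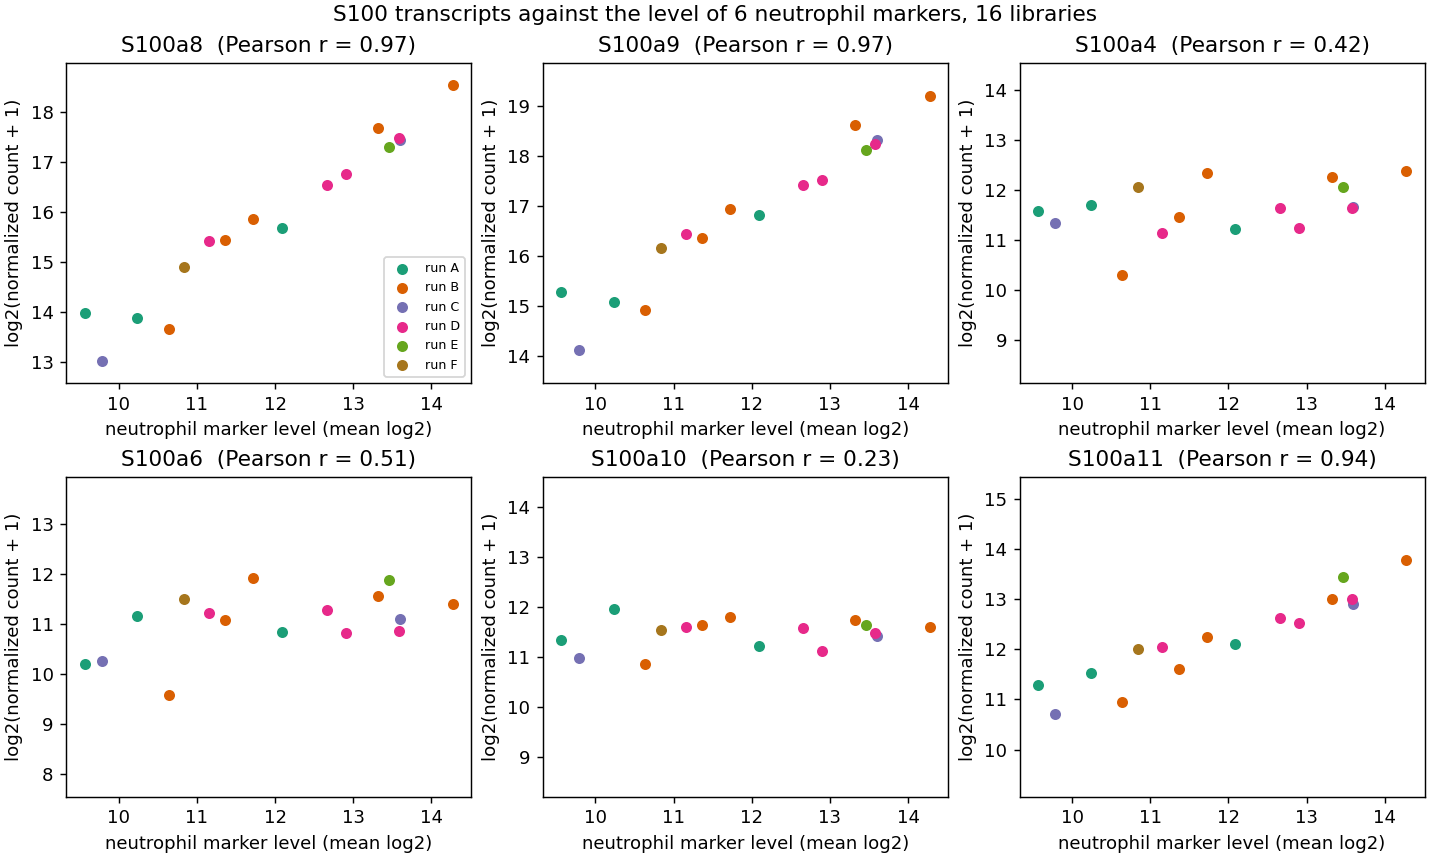
Log2(normalized count + 1) of each S100 transcript against the mean log2 level of 6 neutrophil markers in the 16 libraries. Points are colored by run, and vertical axes have equal span. S100a8, S100a9 and S100a11 rise along a line (r = 0.974, 0.966 and 0.941), while S100a4, S100a6 and S100a10 scatter with r of 0.421, 0.508 and 0.230.

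Of S100a8, S100a9 and S100a11, which had negative r with the T cell marker level, only S100a11 passed. S100a8, S100a9 and S100a11 had r = -0.586, -0.575 and -0.594 with the T cell level of Cd3e, Cd3d, Cd3g, Cd2, Cd5 and Cd28 (rho -0.553, -0.562 and -0.565, adjusted permutation p = 0.052, 0.0566 and 0.0469 for r), with -0.669, -0.660 and -0.678 once run means were taken out and -0.553, -0.536 and -0.621 without controls 3 and 12. The T cell call of S100a11 was lost on leaving out any single library except control 6 or 12, and without control 6, the lowest of the 16 for these 3 members, r was -0.815, -0.831 and -0.828. Without the 6 libraries with transcripts of other tissues none of the 3 passed with the T cell level (r = -0.529, -0.502 and -0.463, adjusted permutation p = 0.251, 0.276 and 0.311, n = 10). With the red cell marker level they did not pass over all 16 libraries (r = -0.0954, -0.0958 and -0.183, adjusted permutation p = 0.783, 0.783 and 0.620). They passed without these 6 (r = -0.811, -0.805 and -0.836, adjusted permutation p = 0.0216, 0.0216 and 0.0144, n = 10). Controls 10, 5, 7 and 8, which this setting left out, are all of run B and had the highest red cell levels (15.48, 15.40, 14.90 and 14.85). Leaving them out thus also narrowed the red cell level and kept only control 4 of run B. The part of this in the change of r was not tested. In all 11 of the 48 relations to marker levels passed, and 6 passed in all 27 alternatives, namely those of S100a8, S100a9 and S100a11 with both neutrophil lists.

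Of 16 binding partners and receptors of S100 proteins, all were listed in every library. Relations to single genes were chosen after the data were seen, and their p-values are adjusted over 80 relations. Annexin A1, the partner of S100a11, ranged from 4023 normalized counts in control 6 to 90092 in control 8 and followed S100a11 with r = 0.953 (rho 0.947, adjusted permutation p = 6.67e-05; 0.993 with run means taken out, 0.926 without controls 6 and 8). Annexin A1 had r = 0.960 with the neutrophil marker level, and it was nearer to S100a8 (r = 0.978, rank 12 in the ranking of similar genes below) than to S100a11 (rank 52). Annexin A2, the partner of S100a10, ranged from 5904 in control 6 to 31968 in control 8 and did not pass with S100a10 (r = 0.424, rho 0.341, adjusted p = 0.182 and 0.310; 0.443 with run means taken out, 0.291 without controls 6 and 8). It passed with S100a8 (r = 0.952, rho 0.944, adjusted permutation p = 6.67e-05; 0.967 and 0.933), and had r = 0.927 with the neutrophil marker level. Ahnak, a large protein anchored by the S100a10 and annexin A2 complex, had r = -0.381 with S100a10 (rho -0.206, adjusted p = 0.234 and 0.536; -0.315 with run means taken out, -0.527 without controls 3 and 6).

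Of the partners of S100a6, Cacybp (r = 0.323, rho 0.276, adjusted permutation p = 0.324 and 0.413) and annexin A11 (Anxa11, r = 0.409, rho 0.376, adjusted p = 0.198 and 0.259) did not pass. With run means taken out r was 0.517 and 0.276, and it was -0.0995 without controls 4 and 7 for Cacybp and 0.386 without controls 2 and 3 for annexin A11. Sugt1, a co-chaperone that binds S100a6, passed by r alone (0.654, rho 0.591, adjusted permutation p = 0.0196 and 0.0544), with 0.716 once run means were taken out and 0.414 without controls 4 and 8. Myh9, the myosin bound by S100a4, had r = -0.164 with S100a4 (rho -0.159, adjusted permutation p = 0.628 and 0.607; -0.172 with run means taken out, -0.520 without controls 10 and 12). These members and their partners thus did not pass by rank in these animals.

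The receptor side of the calprotectin pair was measured at lower counts. Tlr4 ranged from 110 normalized counts in control 4 to 807 in control 9 and followed S100a8 with r = 0.855 (rho 0.876, adjusted permutation p = 0.00025 and 0.00032; 0.957 with run means taken out, 0.849 without controls 7 and 9). Its co-receptor Ly96 had r = 0.749 (rho 0.618, adjusted p = 0.00448 and 0.0436; 0.803 and, without controls 3 and 6, 0.625). Tlr4 and Ly96 themselves had r = 0.821 and 0.727 with the neutrophil marker level. Bsg, a surface glycoprotein that binds S100a9, varied little (2054 ± 321 normalized counts, SD, n = 16) and did not pass with S100a9 (r = 0.186, rho 0.221, adjusted permutation p = 0.596 and 0.519; 0.437 with run means taken out, 0.198 without controls 3 and 15). Ager, the other receptor named above, averaged 71.2 ± 17.2 normalized counts.

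Other S100 genes were scarce in this blood. Of 12 further genes on the list, 11 were listed in at least 1 library. S100a13 averaged 48.7 ± 11.7 and S100pbp, a gene named for binding S100p, 288 ± 71.8 normalized counts (SD, n = 16). S100a5, S100a7a, S100a14, S100g and S100z never exceeded 2 counts in a library, which is under the floor of 3 counts, and S100a1 and S100a3 averaged 5.64 ± 3.23 and 8.14 ± 5.03. S100b, a gene of glia and fat cells, was at 215 normalized counts in control 12 and 31.1 in control 10, the libraries with fat and connective tissue transcripts, and at 3.8 or less in the other 14. S100a16 was highest in control 2 (77.0), control 12 (42.7) and control 10 (31.1), and at most 16.0 elsewhere. The part of other tissues in these values was not tested. None of the 6 members had its highest value in control 2, 10 or 12. S100a8, S100a9, S100a4 and S100a11 were highest in control 8 and S100a6 in control 5, which are libraries with liver transcripts. S100a10 was highest in control 3. The part of other tissues in the levels of the members was not tested.

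Genes with the most similar profile were ranked by r among 8373 genes with a symbol and a mean of at least 100 normalized counts, as a description with no test. S100a8 and S100a9 each had the other as nearest gene. The gene outside the family nearest to both was Pglyrp1, a bactericidal protein of neutrophil granules (r = 0.992 and 0.986), followed for S100a8 by the kinase Bmx (0.986) and by Fbxl5, an iron-sensing subunit of a ubiquitin ligase (0.984), and for S100a9 by Fbxl5 (0.983) and Tspo, a protein of the outer mitochondrial membrane (0.983). S100a11 was nearest to the nucleosome-binding protein Hmgn2 (0.988), the G protein subunit Gng10 (0.982) and the glutaredoxin Glrx (0.979). S100a9 ranked 12 and S100a8 ranked 15 for S100a11.

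The nearest genes of the other 3 members were less close. For S100a10 they were the LIM protein Crip1 (r = 0.923), the acetyltransferase subunit Naa20 (0.83) and the mRNA cleavage factor NUDT21 (0.83). For S100a4 they were Tmem50a (0.872), the mitochondrial ribosomal protein Mrpl20 (0.855) and RGD1311745 (0.845). For S100a6 they were the ubiquitin ligase Rnf130 (0.865), the proton pump subunit Atp6v1c1 (0.837) and lysozyme (Lyz2, 0.826), with S100a10 and S100a4 ranked 4 and 5.

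None of the 6 members was called different between runs by edgeR's quasi-likelihood test. Libraries carried codes in their file names, here called runs, and the labels do not say what the codes stand for. The 3 runs with at least 3 libraries were compared in a single fit of 12952 genes: run A (controls 1 to 3), run B (controls 4, 5, 7, 8 and 10) and run D (controls 11 to 14). Files of these runs listed 19356, 20141 and 18677 genes. Run and experiment cannot be told apart. At an adjusted p under 0.05, 0 of 6 members were called in each of the 3 comparisons, against 0% of all genes between A and B, 0% between A and D and 2.3% between B and D. Values of the runs overlapped for all 6 members in every comparison, where 6.42%, 7.19% and 5.88% of all genes did not overlap. At an unadjusted p under 0.05, 2 of the 6 passed between A and B and none in the other 2 comparisons, against 13.6%, 5.41% and 11.3% of all genes. DESeq2 and limma-voom called none of the 6 either. The count for all genes depended on single libraries: 506 genes were called between A and B without control 4, and 2 between B and D without control 11 or 14.

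The widest differences were in the calprotectin pair. S100a8 stood at 52853, 16142 and 15173 normalized counts in run A, at 13019, 59739, 210506, 382314 and 44764 in run B, and at 95336, 44070, 111478 and 183087 in run D. Run B alone spanned both the lowest and the highest of these 12 values. From A to B the log2 fold change was 2.31 ± 0.98 for S100a8 (SE, edgeR p = 0.0358, adjusted p = 0.327), 1.95 ± 0.87 for S100a9 (p = 0.0457, adjusted p = 0.358) and 0.95 ± 0.54 for S100a11 (adjusted p = 0.470). From A to D they were 1.95 ± 0.98, 1.58 ± 0.88 and 0.90 ± 0.56 (adjusted p = 0.918 for all 3). From B to D all 6 members lay between -0.48 and -0.05 (lowest adjusted p = 0.825), and the sign flipped for all 6 with library totals as the scaling and for S100a8, S100a9 and S100a11 with limma-voom. The median of the 6 neutrophil markers moved by 1.97 from A to B and 1.84 from A to D, beside medians of 0.72 and 0.59 over the 6 members and -0.03 and -0.01 over all genes. The part of the neutrophil level in the differences between runs was not tested.

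**Figure D5:**
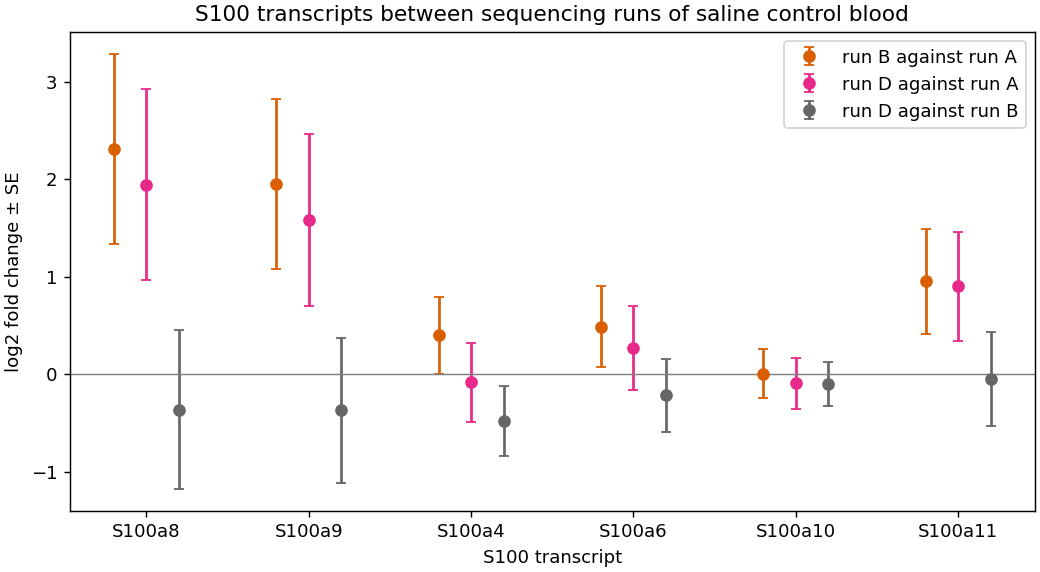
Log2 fold change ± SE of the 6 S100 transcripts between runs A (n = 3), B (n = 5) and D (n = 4), from edgeR on rounded estimated counts. The title calls them sequencing runs, which the labels do not say. S100a8 and S100a9 are highest against run A, at 2.31 and 1.95 for run B, with standard errors of 0.98 and 0.87, and no member passed an adjusted p under 0.05.

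S100a4, S100a6 and S100a10 differed between runs by at most 0.49 on the log2 scale in either direction, with standard errors of 0.23 to 0.43. Their lowest adjusted p by edgeR was 0.633. Among the 16 partners and receptors, none was called between A and B or A and D in the main edgeR fit, and Cd36, a scavenger receptor that binds S100a9, was lower in D than in B (-1.22 ± 0.26, edgeR adjusted p = 0.036, values not overlapping). In the same comparison 4 of the 5 red cell markers were called lower, values of all 5 did not overlap, and their median log2 fold change was -1.43, and their part in the result for Cd36 was not tested. The call of Cd36 from B to D passed in 10 of 20 alternatives, and was lost without control 5, 7, 10, 11, 12, 13 or 14 alone, with adjusted p of at most 0.131 there, and with library totals as the scaling (-0.64, adjusted p = 0.179). From A to B, Cd36 had 0.88 in the main fit (edgeR adjusted p = 0.183). It was called there by DESeq2 (0.90, adjusted p = 0.0313) and by edgeR without control 4 (1.03, adjusted p = 0.0320). Simulated 4-fold changes were recovered in 66% of genes between A and B, 64.4% between A and D and 72.3% between B and D. For 2-fold changes the values were 7%, 6.1% and 8.6%, so most differences of 2-fold would not have been detected. These percentages are over the changed genes as a whole. S100a8 and S100a9 had coefficients of variation of 100.8% and 90.5%, against a median of 29.7% among well expressed genes. Recovery of 4-fold changes in genes with so wide a spread was not tested.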

How the data were processed

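Whole blood mRNA was sequenced from 16 saline control rats. The authors trimmed the reads with fastq-mcf, aligned them with Bowtie 0.12.9 to the Ensembl transcriptome of rat build rn5 and deposited RSEM 1.2.0 estimated counts per gene, which are not normalized and, in 19.3% to 27.1% of the values of a library, not whole. RSEM splits reads that match more than 1 transcript. The counts were rounded here, and genes missing from any file were left out, which kept 18031. Totals of 21466776 to 31189549 counts per library put a floor of 3 counts at 0.0962 to 0.140 CPM.

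The 6 members, the gene lists and the tests were chosen with earlier results of these data known. All libraries formed a single group. Run codes in the file names were used to sort the libraries into runs, and the labels do not say whether the codes mark technical batches or repeated experiments. The lowest chi-square per degree of freedom over 120 pairs of libraries was 48.0, so each was counted as 1 sample. Levels are DESeq2 1.42.0 normalized counts. Relations used log2(normalized count + 1) and two-sided permutation tests with 100000 permutations. A marker level is the mean over the genes of a list with a mean of at least 10 normalized counts. Runs A, B and D were compared with edgeR 4.0.16 (TMM, filterByExpr, quasi-likelihood F-test, Benjamini-Hochberg over all 12952 genes), tested on simulated data. Relations to the eighth marker level, of which 3 passed, entered the counts and the adjustment and are not reported here. Alternatives were DESeq2, limma-voom (limma 3.58.1), other scalings, no filter, another pseudocount, all libraries in the fit, globin genes left out, and libraries left out. Labels number the animals but no treated group was analysed here. Always named were the members, the further S100 genes with a mean of at least 10 normalized counts, the partners on which a result turns, and the 3 genes most like each member. Sequences came from RefSeq tables of GRCr8, with no gene coordinates carried over to rn5. Genome coordinates of the counted genes were not used here.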

Additional observations from a re-analysis of the deposited data

Results flagged for a closer look

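Within the 5 libraries of run B, S100a10 in control 4 lay far from the others, at 1871 normalized counts against 3122 to 3588 in controls 5, 7, 8 and 10. Its gap to the nearest of these was 0.729 of the range of the run, above the critical value of 0.71 of Dixon's test. The tests covered both ends of 14 sets of values, which are the 6 members and the ratio of S100a9 to S100a8 in runs B and D, and chance alone flags about 1 set in 20. Control 4 was also the lowest of all 16 libraries for S100a4 and S100a6, at 1262 and 761 normalized counts, without passing the same test in run B.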

How the results depend on the processing

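No paired analysis was possible because all libraries belong to a single group. Between runs no member was called under any alternative, and the lowest adjusted p of a member was 0.0993 from A to B, 0.433 from A to D and 0.122 from B to D. Scaling by library totals moved the median of all genes to -0.50 from A to B and 0.53 from B to D, and with it signs of members that were not called: S100a4, S100a6 and S100a10 to -0.17, -0.14 and -0.55 from A to B, and S100a8, S100a9, S100a4, S100a6, S100a10 and S100a11 to 0.19, 0.19, 0.090, 0.39, 0.46 and 0.50 from B to D. limma-voom gave 0.33, 0.21 and 0.25 for S100a8, S100a9 and S100a11 from B to D. S100a10 from A to B (0.004) became -0.0077 with no filter, -0.041 with all 16 libraries, and -0.10 without controls 2 and 12, a setting chosen after seeing the data that also gave 0.034 for S100a4 and -0.0065 for S100a6 from A to D, and 0.10 for S100a11 from B to D. Leaving out each library in turn gave log2 fold changes of -0.13 to 0.27 for S100a10 from A to B, of -0.21 to 0.025 for S100a4 and -0.23 to 0.17 for S100a10 from A to D, and from B to D of -0.75 to 0.40 for S100a8, -0.71 to 0.23 for S100a9 and -0.29 to 0.44 for S100a11. The number of genes called in all changed by method: 0, 0 and 298 by edgeR, 563, 14 and 742 by DESeq2, and 7, 0 and 299 by limma-voom.

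Of the 15 member pairs 10 passed; 6 did by Spearman's rho and 5 without the 2 farthest libraries, where S100a10 with S100a11 turned to -0.0047. Of the 48 relations to marker levels 11 passed; 6 did without the 2 farthest libraries. Leaving out each library in turn gave 5 to 10 pairs and 8 to 13 relations to markers. Without the 6 libraries with transcripts of other tissues 7 pairs and 12 relations to markers passed, and without control 5 alone 10 and 10. The causes of these changes were not tested, and fewer samples entered each fit with libraries left out. The members' means and the log2 ratio of S100a8 to S100a9 moved by less than 1 SD and the coefficients of variation by less than 1.5 times in every alternative run.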

Other observations

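The 5 monocyte markers did not move alike with the calprotectin pair, in relations chosen after the data were seen and adjusted over 80 relations. S100a8 rose with Cd14, the co-receptor of Tlr4 (r = 0.839, rho 0.80, adjusted permutation p = 0.000213 and 0.00165; 0.924 with run means taken out, 0.852 without the 2 libraries farthest from the median of Cd14). It did not pass with Csf1r, the receptor of the macrophage growth factor (r = -0.313, rho -0.350, adjusted permutation p = 0.348 and 0.295; -0.0556 and -0.320), or with Cx3cr1, the fractalkine receptor (r = -0.550, rho -0.471, adjusted permutation p = 0.0592 and 0.152; -0.433 and -0.476). Lyz2 had r = 0.821 and Cd68 r = 0.230 with S100a8, given without a test. With S100a9, Cd14, Lyz2 and Cd68 had r = 0.836, 0.840 and 0.231, and Csf1r and Cx3cr1 had -0.309 and -0.559, also without a test. Cd14 itself had r = 0.822 with the neutrophil marker level, while Csf1r and Cx3cr1 had -0.264 and -0.486. Plaur, the urokinase receptor, ranged from 106 to 1067 normalized counts and followed S100a8 with r = 0.937 (rho 0.932, adjusted permutation p = 6.67e-05; 0.945 with run means taken out, 0.906 without controls 6 and 8). Plaur had r = 0.952 with the neutrophil marker level.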
